A study of Danio rerio with 24 samples.

Results

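Cone opsins are the light-absorbing receptors of cone photoreceptors, the cells of daylight and colour vision. The group described here consists of the 8 genes whose symbols in the deposited expression tables are those of the zebrafish cone opsins, out of 32520 genes. They are opn1sw1 (ultraviolet), opn1sw2 (blue), opn1mw1, opn1mw2, opn1mw3 and opn1mw4 (green), and opn1lw1 and opn1lw2 (red).

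Each opsin is a G protein-coupled receptor that holds a retinal chromophore. Light absorbed by the chromophore activates cone transducin, which turns on a phosphodiesterase, and the fall in cyclic GMP closes the cone's ion channels. In zebrafish the green and the red opsins are tandem duplicates, and the duplicates come on in sequence during growth. Among them opn1mw1 and opn1lw2 are known as early larval copies of the central retina, and opn1mw3, opn1mw4 and opn1lw1 as later, more peripheral copies.

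RNA was sequenced from wildtype zebrafish labelled as whole embryo and sampled 120 hours post fertilisation (hpf), when larvae swim freely and the retina functions. All 24 libraries came from fish kept from 0.75 to 120 hpf in 0.1% dimethyl sulfoxide (DMSO), either alone (control) or with perfluorohexane sulfonate (PFHxS), a persistent fluorinated surfactant, at 0.0025 µM or 25 µM. Larvae at each of these 3 doses were kept either in constant darkness (24 h dark per day) or in a light-dark cycle (14 h light, 10 h dark), giving 6 groups of 4 libraries. The question named in the series title is how a disturbed photoperiod bears on PFHxS toxicity during development. Photoperiods were read from the sample titles, since the treatment description mentions darkness for every sample. The dark and cycle libraries also form separate library series deposited in separate tables, so photoperiod and library series cannot be told apart. Nothing in the labels says how many larvae went into a library or whether replicates came from separate clutches, so p-values cover the spread among these libraries only, and that spread may be technical.

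Between 8.44 and 14.5 M fragments were assigned to genes in each dark library and between 10.1 and 18.5 M in each cycle library. Levels are the authors' FPKM (fragments per kilobase of gene, scaled for library size), which compare between genes because they are divided by length. Because whole larvae were used, fewer cones and less opsin RNA per cone cannot be told apart. Markers of eye cells were present at very different levels. The 6 cone markers summed to 985 to 1071 FPKM in dark controls and 679 to 828 FPKM in cycle controls, 4 rod markers to 1103 to 1198 FPKM and 929 to 1442 FPKM, and 4 lens markers to 2753 to 2995 FPKM and 2912 to 3518 FPKM. Bipolar cells, which receive the cone signal, had low marker levels: their 3 markers summed to 8.42 to 9.42 FPKM and 13.2 to 18.7 FPKM, nearly all of it vsx1, with grm6b at 0.47 and 0.82 FPKM on average and cabp5b at 0 in both control groups.

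The 8 genes sit at 3 places in the genome, given here as in the deposited tables, whose build is not given in the sources used here. The ultraviolet opsin opn1sw1 lies alone on chromosome 4 (13577665 to 13580348, minus strand). The green opsins form an array on the plus strand of chromosome 6, with opn1mw1 at 41181869 to 41183823, opn1mw2 at 41186320 to 41189460, opn1mw3 at 41191482 to 41193419 and opn1mw4 at 41200500 to 41202554. The first gap in this array is 2496 bases, the second 2021 bases and the third 7080 bases. The blue opsin opn1sw2 (25459697 to 25475403) is followed on the plus strand of chromosome 11 by opn1lw1 (25477643 to 25480037) and, 1008 bases after that, by opn1lw2 (25481046 to 25483206). How fragments that fit more than 1 tandem copy were counted is not given in the sources used here, so counts may be split between copies. In addition, opn1sw2 overlaps the gene hcfc1a at its start and an antisense gene at its end, both on the opposite strand, and whether counting used strand is not stated.

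Larval cone opsin RNA was dominated by opn1sw1. Taken over the 12 dark libraries its mean level ranked 56th among all genes, and over the 12 cycle libraries 100th. The green opsin opn1mw1 ranked 140th and 217th, the red opsin opn1lw2 384th and 362nd, and the blue opsin opn1sw2 1091st and 1773rd. The second green copy, opn1mw2, ranked 6797th in darkness and 2977th under the cycle. The order of levels in FPKM was opn1sw1, opn1mw1, opn1lw2, opn1sw2 and opn1mw2 in all 12 dark and all 12 cycle libraries, so no neighbours in this order changed places in any library. The remaining 3 genes were near the limit of detection. Over all 24 libraries opn1lw1 had 110 fragments, opn1mw3 had 28 and opn1mw4 had 14, against 458746 for opn1sw1.

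**Figure D1:**
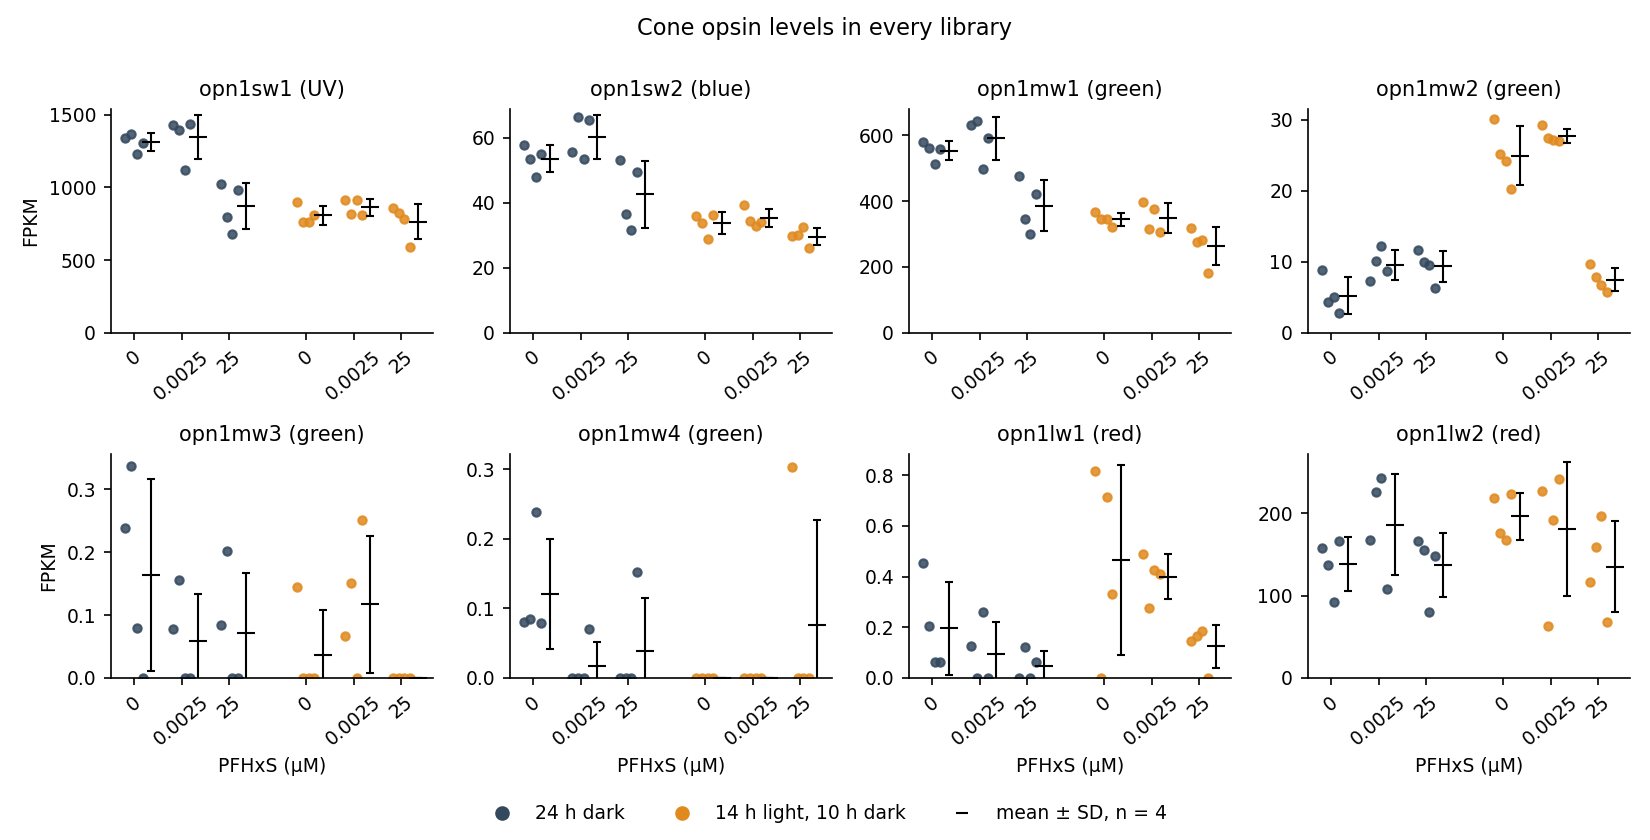
Cone opsin levels in FPKM (vertical axes, each gene on its own scale starting at 0) against PFHxS dose in µM, with 1 point per library, 4 libraries per group and a bar for the mean ± SD. In darkness the points of opn1sw1 and opn1mw1 at 25 µM lie below all control points, while opn1mw2 is high in cycle controls (20.2 to 30.2 FPKM) and lower in the other groups except the cycle group at 0.0025 µM.

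The ultraviolet opsin opn1sw1 was lower after 25 µM PFHxS in darkness. Its level in dark controls was 1339, 1369, 1230 and 1306 FPKM (1311 ± 59.6, SD, n = 4). At 25 µM it was 1021, 794, 682 and 982 FPKM (870 ± 160). All 4 exposed libraries lay below all 4 controls. On the log2(FPKM + 0.1) scale used for all tests, which understates changes of low genes, the difference was −0.61 ± 0.12 (SE, limma adjusted p = 0.00302), or 0.655 times the control level (95% interval 0.548 to 0.784). Of the 5 cone opsins with enough fragments to be tested, 2 fell and 1 rose in this comparison, where 21.8% of all 19058 tested genes passed, 9.6% as lower and 12.2% as higher. The 2318 higher and 1829 lower genes behind these shares became 2129 and 2117 when scaled to total fragments. The exposed libraries lay wholly below the controls for 2 of the 5 (opn1sw1 and opn1mw1), as for 11.8% of all genes.

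Under the light-dark cycle opn1sw1 had a lower control level and no detected response. Cycle controls had 899, 763, 758 and 807 FPKM (807 ± 65.3), and the cycle group at 25 µM had 860, 822, 782 and 590 FPKM (764 ± 120). These groups overlapped, with 1 exposed library below all others. The log2 difference was −0.09 ± 0.11 (adjusted p = 0.760, 95% interval −0.34 to 0.16). The gap between the dark and the cycle response was −0.52 ± 0.17 (adjusted p = 0.151) and did not pass. Without that lowest cycle library it was −0.64 with an adjusted p of 0.0306, so 1 library decides this call.

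The main green opsin opn1mw1 also fell in darkness. Dark controls had 579, 562, 513 and 559 FPKM (553 ± 28.2) and the dark group at 25 µM had 475, 346, 300 and 421 FPKM (386 ± 77.8). The groups did not overlap, and the log2 difference was −0.54 ± 0.13 (adjusted p = 0.00811), or 0.687 times the control level. Under the cycle the values were 365, 347, 345 and 320 FPKM in controls (344 ± 18.7) and 318, 275, 281 and 183 FPKM at 25 µM (264 ± 57.5). Here too every exposed library was below every control, but the difference of −0.41 ± 0.15 did not pass (adjusted p = 0.194, 95% interval −0.73 to −0.09). The response in darkness and that under the cycle differed by −0.13 ± 0.20 (adjusted p = 0.838).

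The second green copy, opn1mw2, fell at 25 µM under the cycle, the largest log2 difference from the control of the same photoperiod among the 5 tested opsins at either dose. Cycle controls had 30.2, 25.2, 24.2 and 20.2 FPKM (25.0 ± 4.11), and the cycle group at 25 µM had 9.66, 7.81, 6.69 and 5.81 FPKM (7.49 ± 1.66). The groups did not overlap. The log2 difference was −1.73 ± 0.15 (adjusted p = 0.000251), a level 3.32-fold lower. It was the only opsin called of the 5 tested in this comparison, in which 1.73% of 18917 genes passed, 0.629% as lower. With opn1mw1, 2 of the 5 had exposed libraries that all lay below the controls, as did 4.65% of all genes. By p-value opn1mw2 stood 4th among all genes tested, and by size 13th among the 119 genes that fell. Over all alternatives the value stayed between −1.75 and −1.62, and with any 1 library left out between −1.86 and −1.62, and it passed in each.

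In darkness opn1mw2 began from a low control level and did not fall. Dark controls had 8.81, 4.28, 5.09 and 2.80 FPKM (5.24 ± 2.56), and the dark group at 25 µM had 11.6, 10.0, 9.48 and 6.28 FPKM (9.34 ± 2.23). The highest control lay within the exposed range. The log2 difference was 0.91 ± 0.29 (adjusted p = 0.0431), a call that was lost in 2 of 9 other settings. The adjusted p was 0.0624 without the expression filter and 0.0671 with only these 2 groups in the fit. With 1 library left out it ran from 0.00648 to 0.115. It missed the threshold in 8 of 12 such fits (without dark control 2, 3 or 4, dark 0.0025 µM 2 or 4, or dark 25 µM 1, 2 or 3). These values rest on few fragments, between 43 and 874 per library over all 24.

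The response of opn1mw2 to 25 µM differed between the photoperiods. The dark response exceeded the cycle response by 2.64 ± 0.35 on the log2 scale (adjusted p = 0.000429, 95% interval 1.91 to 3.36). This was the only cone opsin of the 5 tested to pass, against 1.16% of 20145 genes, 0.973% as higher. Of the genes passing, 196 were higher and 38 lower, which became 121 and 108 when scaled to total fragments. By p-value opn1mw2 ranked 8th. Its difference was 2.40 to 2.67 over the alternatives and 2.39 to 2.92 with each library left out, and passed in each. At 25 µM the levels in darkness and under the cycle did not differ detectably (0.31 ± 0.25, adjusted p = 0.404, 95% interval −0.21 to 0.82), and the libraries of these groups overlapped.

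Because opn1mw1 and opn1mw2 are neighbours in the array, their ratio was also taken in each library, a measure added after the values had been seen and given without a test. For every 100 FPKM of opn1mw1 there were 6.31 to 8.25 FPKM of opn1mw2 in cycle controls and 7.23 to 8.83 FPKM in the cycle group at 0.0025 µM. In the cycle group at 25 µM there were 2.38 to 3.17 FPKM, below every library of the other cycle groups. In darkness there were 0.502 to 1.52 FPKM in controls, 1.16 to 2.45 FPKM at 0.0025 µM and 1.49 to 3.16 FPKM at 25 µM. The ratio was thus not constant over the libraries.

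**Figure D2:**
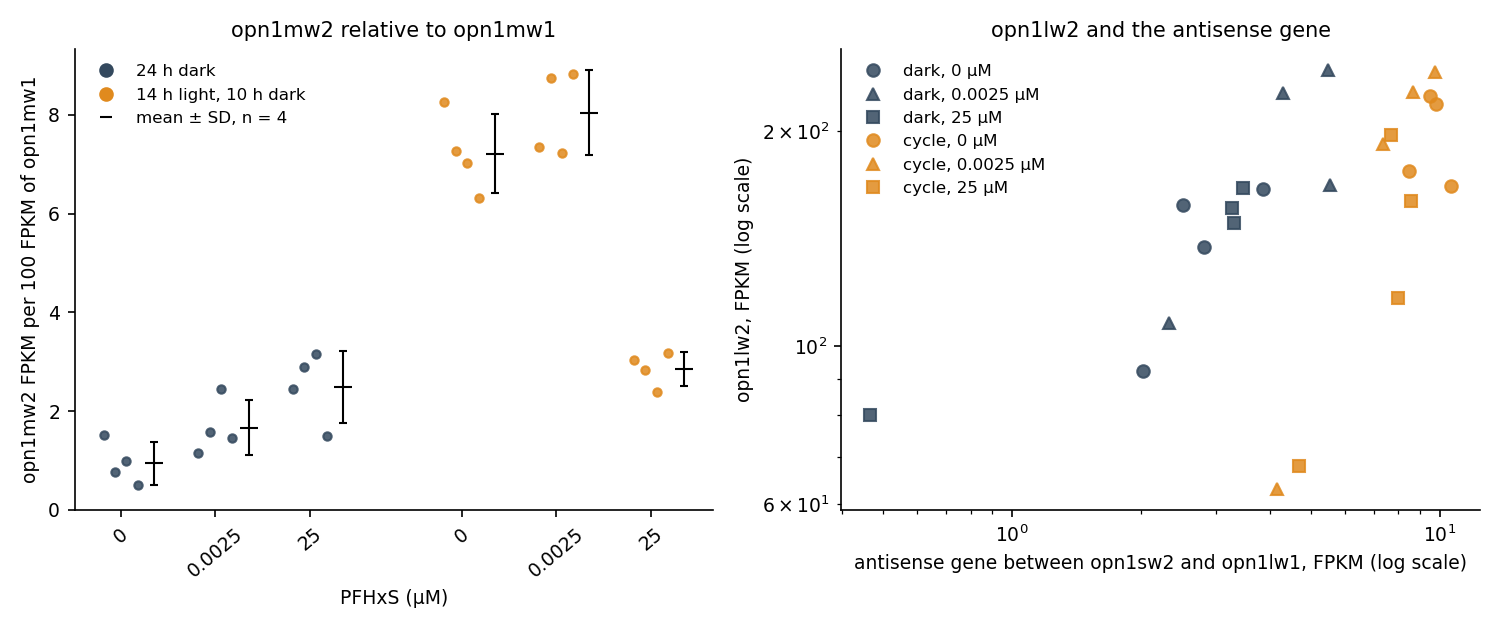
Left, FPKM of opn1mw2 per 100 FPKM of opn1mw1 in each library against PFHxS dose in µM, with the mean ± SD of 4 libraries, which is 7.22 for cycle controls against 2.86 at 25 µM under the cycle. Right, opn1lw2 against the antisense gene CT573282.1 in FPKM on log axes, with 1 point per library. Within each photoperiod the library lowest in the antisense gene is also lowest in opn1lw2. Higher libraries are ordered more loosely, such as cycle control 3 with 10.6 FPKM of the antisense gene and 167 FPKM of opn1lw2.

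The blue opsin opn1sw2 was at 57.8, 53.6, 47.9 and 55.2 FPKM in dark controls (53.6 ± 4.16) and at 53.1, 36.4, 31.5 and 49.6 FPKM in the dark group at 25 µM (42.7 ± 10.3). The ranges overlapped, since the first and the fourth exposed library reached control levels. The difference of −0.36 ± 0.15 did not pass (adjusted p = 0.104), and passed without the first exposed library (−0.47, adjusted p = 0.0278). Under the cycle, controls had 36.0, 33.8, 28.9 and 36.1 FPKM (33.7 ± 3.38) and the group at 25 µM had 29.8, 30.0, 32.6 and 26.1 FPKM (29.6 ± 2.66). The difference was −0.18 ± 0.09 (adjusted p = 0.371, 95% interval −0.39 to 0.02) and the groups overlapped.

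The red opsin opn1lw2 was the most variable of the abundant cone opsins and showed no detectable dose response. In dark controls it was at 158, 138, 92.1 and 166 FPKM (138 ± 33.0), and in the dark group at 25 µM at 166, 156, 80.2 and 149 FPKM (138 ± 39.1). The groups covered the same range, and the log2 difference was −0.03 ± 0.28 (adjusted p = 0.962, 95% interval −0.64 to 0.59). In cycle controls it was at 219, 176, 167 and 224 FPKM (196 ± 28.9), and in the cycle group at 25 µM at 117, 160, 197 and 67.9 FPKM (135 ± 55.8). At 25 µM 3 libraries lay below the controls and 1 among them, and the difference was −0.63 ± 0.40 (adjusted p = 0.484, 95% interval −1.51 to 0.25). Its coefficient of variation within a group ran from 14.7% to 45.0%, so changes of the size seen in opn1sw1 were not detectable for this gene.

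Part of this spread was shared with the antisense gene CT573282.1 (chromosome 11, 25475283 to 25476185, minus strand), which overlaps the last 121 bases of opn1sw2, ends 1457 bases before opn1lw1 and spans the microRNA gene dre-mir-726, itself listed at 0 FPKM. With photoperiod means removed it was the second most similar of 16181 genes to opn1lw2 (Pearson r = 0.756 over 24 libraries), after the translation factor gene denr (0.777) and before the connexin gene cx32.3 (0.707). Within the 12 dark libraries r was 0.849 and within the 12 cycle libraries 0.889, a description over libraries that share dose groups and scaling. With the means of the 6 groups removed, r between the antisense gene and opn1lw2 was 0.744. Its r with opn1sw2, the opsin it overlaps, was 0.571, and with opn1mw2 0.0928. The antisense gene was at 2.80 ± 0.77 FPKM in dark controls and 9.59 ± 0.88 FPKM in cycle controls, a difference of −1.77 ± 0.43 (adjusted p = 0.00582).

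The later red and green copies remained scarce. The red copy opn1lw1 had 45 fragments summed over the 4 cycle controls, 33 at 0.0025 µM and 10 at 25 µM, against 12, 6 and 4 in the dark groups. In FPKM it was at 0.818, 0, 0.714 and 0.333 in the cycle controls and at 0.148, 0.166, 0.187 and 0 at 25 µM. It made up at most 0.436% of the red opsin FPKM in any library. The third green copy opn1mw3 had 28 fragments over all libraries and none in the cycle group at 25 µM, which allows up to 0.0451 FPKM (3 fragments over the group, counting error only). The fourth, opn1mw4, had 14 fragments and none in cycle controls or the cycle group at 0.0025 µM, which allows up to 0.0406 FPKM and 0.0425 FPKM. With no expression filter none of the 3 passed in any comparison, and their folds depend on the added 0.1 FPKM.

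At 0.0025 µM no cone opsin passed in either photoperiod. In darkness 0 of 5 were called against 0.021% of genes, and none by limma-voom. An unadjusted p under 0.05 was found for 1 opsin of the 5, and for 1417 of 19058 genes. That opsin was opn1mw2, at 7.29, 10.1, 12.2 and 8.64 FPKM (9.57 ± 2.12), a difference from dark controls of 0.95 ± 0.29 (adjusted p = 0.557). The other levels in this group were 1344 ± 151 FPKM for opn1sw1, 591 ± 65.5 for opn1mw1, 60.3 ± 6.63 for opn1sw2 and 186 ± 61.5 for opn1lw2. Under the cycle 0 of 5 were called, where 0.0% of genes passed, and none by limma-voom. None of the 5 had an unadjusted p under 0.05, against 1029 of 18917 genes. Levels were 864 ± 58.1 FPKM for opn1sw1, 348 ± 45.6 for opn1mw1, 35.2 ± 2.77 for opn1sw2, 27.7 ± 1.05 for opn1mw2 and 181 ± 81.4 for opn1lw2. The response to 0.0025 µM differed between photoperiods for 0 of 5 opsins against 0.00496% of genes, and for none by limma-voom. Here 1 of the 5 had an unadjusted p under 0.05, as had 1608 of 20145 genes.

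Against the 0.0025 µM group, which replaces the controls but shares the exposed libraries with the comparisons above, 25 µM in darkness gave falls of opn1sw1 (−0.64 ± 0.12, adjusted p = 0.00232), opn1mw1 (−0.63 ± 0.13, adjusted p = 0.00329) and opn1sw2 (−0.52 ± 0.15, adjusted p = 0.0231). These 3 of 5 stood against 20.9% of genes called, 9.42% as lower, and all 3 had groups that did not overlap, as had 10.4% of genes in that direction. The fall of opn1sw2 missed the threshold with only these 2 groups in the fit (adjusted p = 0.0532) and without dark 0.0025 µM library 2 or 4 or dark 25 µM library 2 or 3 (0.0579 to 0.0701). In the same comparison opn1mw2 was at −0.04 ± 0.29, with groups that overlapped. Under the cycle only opn1mw2 passed (−1.90 ± 0.15, adjusted p = 0.000119), against 2.02% of genes, 0.624% as lower. The groups did not overlap for opn1mw2 or for opn1sw2 (−0.25 ± 0.09, adjusted p = 0.218), as for 3.54% of genes in that direction.

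**Figure D3:**
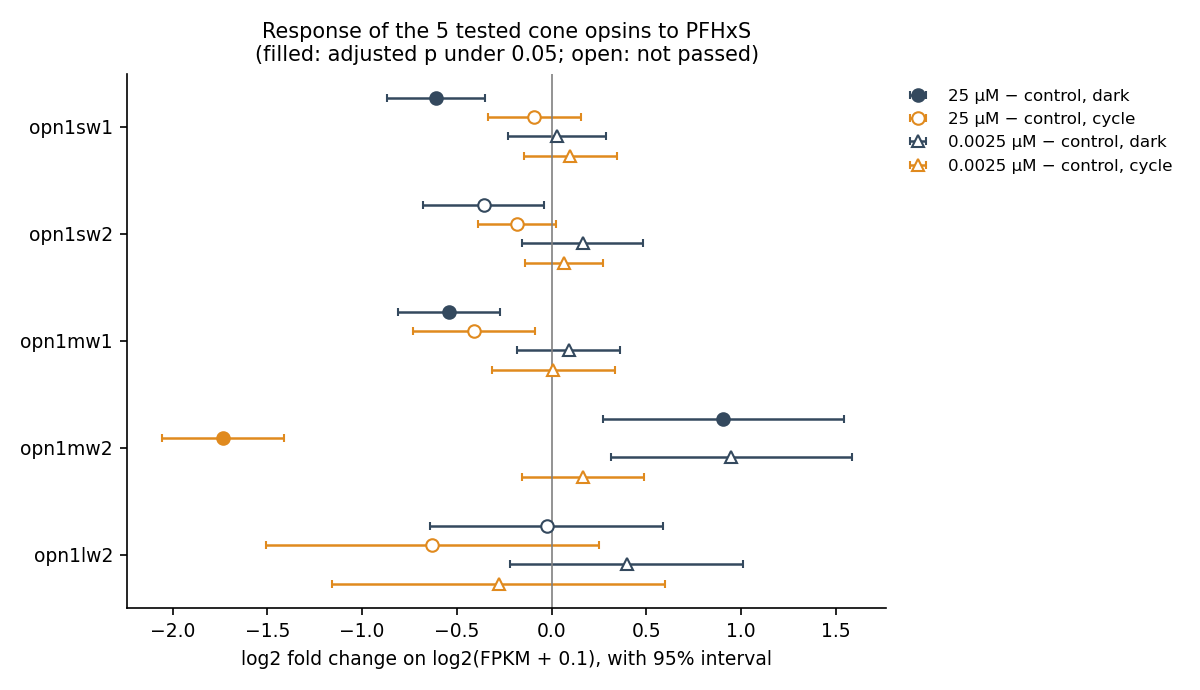
Log2 fold change on log2(FPKM + 0.1), with 95% intervals, of the 5 tested cone opsins for 25 µM (circles) and 0.0025 µM (triangles) PFHxS against the control of the same photoperiod, where filled symbols passed an adjusted p of 0.05. The only filled symbols are opn1sw1, opn1mw1 and opn1mw2 at 25 µM in darkness and opn1mw2 at 25 µM under the cycle, where it lies at −1.73.

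Controls differed between the photoperiods in 4 of 5 tested opsins, where 20.1% of genes passed, 9.24% as higher in darkness and 10.8% as lower. Scaled to total fragments the 1862 higher and 2185 lower genes behind these shares became 2514 and 1545. In darkness opn1sw1 was higher by 0.70 ± 0.12 (adjusted p = 0.000292), opn1sw2 by 0.67 ± 0.13 (adjusted p = 0.000868) and opn1mw1 by 0.68 ± 0.14 (adjusted p = 0.00189), with groups that did not overlap in these 3 of 5, as in 11.9% of genes. The opposite held for opn1mw2, which was 5.04-fold lower in dark than in cycle controls (log2 −2.33 ± 0.25, adjusted p = 6.12e-07). For opn1lw2 all dark controls lay below all cycle controls, but the difference of −0.53 ± 0.37 did not pass (adjusted p = 0.337). Together with opn1mw2, dark controls were thus wholly below cycle controls for 2 of 5, as for 12.4% of genes.

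At 0.0025 µM the same 4 opsins passed, with opn1sw1 at 0.63, opn1sw2 at 0.77 and opn1mw1 at 0.77 higher in darkness and opn1mw2 at −1.55, against 20.2% of genes, 10.2% as higher and 9.93% as lower. The groups did not overlap in these 4, as in 10.9% of genes upward and 11.1% downward. At 25 µM only opn1sw2 (0.50 ± 0.13, adjusted p = 0.00863) and opn1mw1 (0.55 ± 0.14, adjusted p = 0.00916) passed, against 21.2% of genes, 11.6% as higher, and opn1sw1 was at 0.18 ± 0.12 (adjusted p = 0.299). For both genes that passed the groups overlapped. In darkness opn1sw2 was at 31.5 to 53.1 FPKM and under the cycle at 26.1 to 32.6 FPKM, and opn1mw1 at 300 to 475 FPKM and 183 to 318 FPKM. All these contrasts set levels across tables that the authors scaled separately, so any offset of a gene between the tables would enter them.

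Summed over the 8 genes, cone opsin RNA stood at 2062 ± 118 FPKM in dark controls, 2191 ± 184 FPKM at 0.0025 µM and 1445 ± 279 FPKM at 25 µM in darkness. Under the cycle the sums were 1407 ± 102, 1456 ± 154 and 1201 ± 219 FPKM at 0, 0.0025 and 25 µM. As a share of all fragments they took 0.360% in dark controls, 0.247% at 25 µM in darkness, 0.232% in cycle controls and 0.204% at 25 µM under the cycle. The sums carry no test of their own, being close to the sum of opn1sw1 and opn1mw1.

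The make-up of this RNA was compared by exact two-sided permutation tests over libraries, 15 in all, in which 4 against 4 cannot give less than p = 0.0286. The ultraviolet share was 63.6% ± 1.33 in dark controls and 60.3% ± 1.37 in the dark group at 25 µM, and under the cycle 57.3% ± 0.52 and 63.9% ± 3.06. It was thus lower at 25 µM in darkness and higher at 25 µM under the cycle. A share also depends on the other opsins, and under the cycle the level of opn1sw1 itself was not higher (764 against 807 FPKM in controls). There opn1mw1 was at 264 against 344 FPKM and opn1lw2 at 135 against 196 FPKM, and none of these level differences passed. In the ultraviolet share neither group at 25 µM overlapped its controls, and the controls of both photoperiods did not overlap. Each of these 3 comparisons had the smallest possible p (exact p = 0.0286, adjusted p = 0.0857 over the 15 tests). The red share was 6.67% ± 1.34 in dark controls and 14.0% ± 1.45 in cycle controls, again without overlap (exact p = 0.0286, adjusted p = 0.0857). The blue share was 2.60% ± 0.084 in dark controls and 2.93% ± 0.18 at 25 µM in darkness, with the same p-values. The green share under the cycle was 26.3% ± 1.78 in controls and 22.5% ± 1.38 at 25 µM (exact p = 0.0571, adjusted p = 0.143). None of the 15 passed after adjustment. A lone comparison at the smallest possible p could not pass over 15 tests, so this outcome does not show that the shares were alike.

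**Figure D4:**
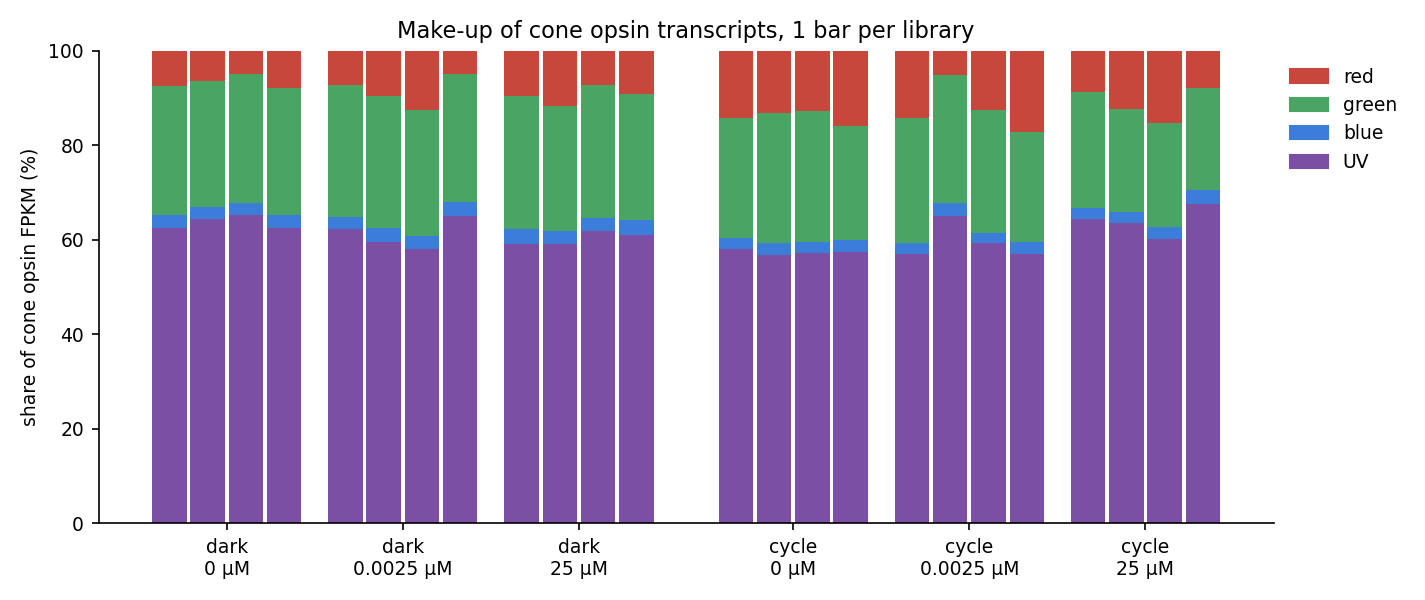
Share of the summed cone opsin FPKM in percent (vertical axis, 0 to 100) taken by ultraviolet, blue, green and red opsins, with 1 bar per library in replicate order within each of the 6 groups. Ultraviolet opsin fills 56.7% to 58.0% of the bars of the cycle controls and 60.2% to 67.6% of those of the cycle group at 25 µM.

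Other genes of the cone light response also moved at 25 µM. Of 26 tested genes of cone phototransduction, 8 fell and none rose in darkness, where 9.6% of all genes fell and 12.2% rose, with a median log2 difference of −0.25 where the median of all genes was −0.01. Among them were the channel subunits cnga3a (−0.82 ± 0.17, adjusted p = 0.00460) and cngb3.2 (−0.65 ± 0.14, adjusted p = 0.00625), the cone transducin gnat2 (−0.46 ± 0.10, adjusted p = 0.00599) and the transducin regulator rgs9a (−0.68 ± 0.15), which rods also use. Under the cycle 3 of 25 fell and none rose, where 0.629% of all genes fell and 1.73% passed in either direction. The median was −0.43 where that of all genes was −0.02. Limma-voom called 7 of the list lower, and 419 of all genes in either direction. The 3 that limma called were the cone phosphodiesterase inhibitory subunit pde6ha (−1.49 ± 0.16, adjusted p = 0.00115), the cone opsin kinase grk7a (−0.99 ± 0.18, adjusted p = 0.0197) and the guanylate cyclase activator guca1g (−1.27 ± 0.25, adjusted p = 0.0300). In level, pde6ha went from 23.3 ± 2.74 to 8.42 ± 2.21 FPKM. Like opn1mw2 it was called in the test of the difference between the dark and cycle responses (1.35 ± 0.25, adjusted p = 0.00586), the only such gene of the list's 26 where 1.16% of all genes passed, and in darkness it was at −0.13 ± 0.17. Its control levels ran opposite to those of opn1mw2, at 80.9 ± 4.63 FPKM in darkness.

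**Figure D5:**
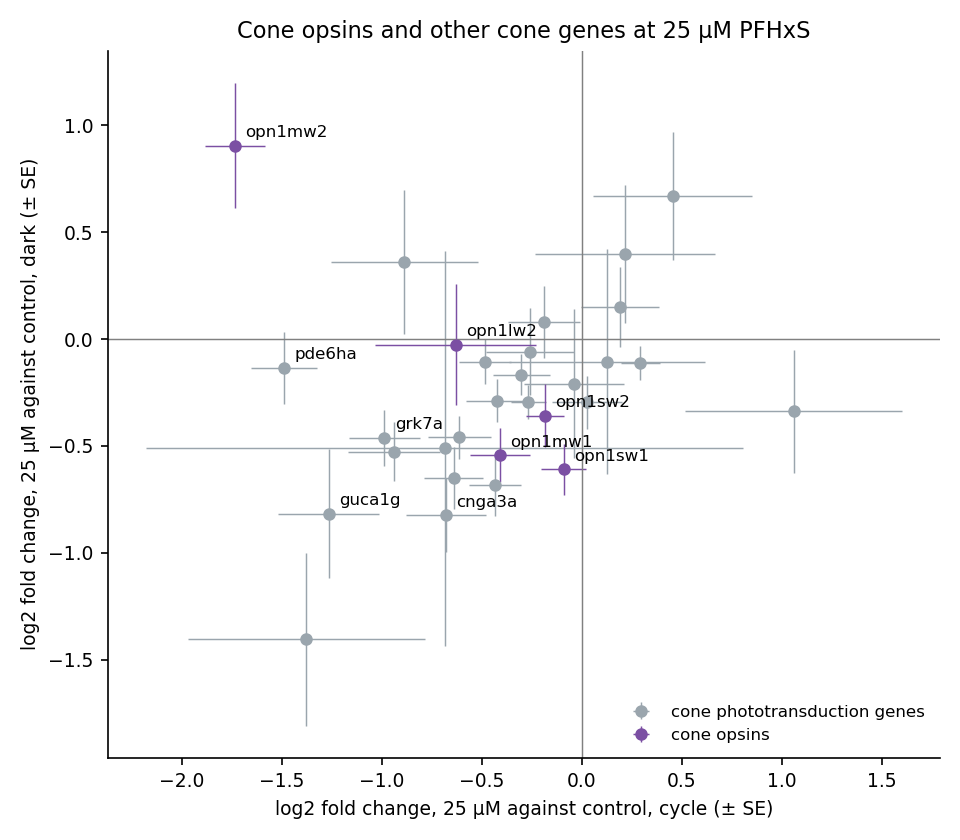
Log2 fold change at 25 µM PFHxS against control in darkness (vertical axis) and under the cycle (horizontal axis), ± SE, for the 5 tested cone opsins and 25 other cone phototransduction genes tested in both photoperiods. Most genes lie at or below 0 on both axes, and opn1mw2 stands apart at 0.91 in darkness and −1.73 under the cycle.

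Among 20 tested regulators of cone fate and opsin choice, 3 fell and 1 rose in darkness at 25 µM. These 4 of 20 are close to the 21.8% of all genes called, so the count does not set the list apart. The falls were samd7 (−0.81 ± 0.12, adjusted p = 0.000557), a photoreceptor chromatin regulator, foxn4 (−0.63 ± 0.15), a transcription factor of retinal progenitors, and thrb (−0.44 ± 0.12, adjusted p = 0.0194), the thyroid hormone receptor that red cones of zebrafish require. The rise was six7 (0.33 ± 0.11, adjusted p = 0.0419), a factor that zebrafish need for green and blue opsin expression. Under the cycle none of 20 passed, where 1.73% of all genes did, and 1 was lower by limma-voom. An unadjusted p under 0.05 was found for 3 of the 20, and for 3050 of 18917 genes.

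Lists and markers of other eye cells were read in the same comparisons, against 21.8% of all genes called in darkness (9.6% as lower, 12.2% as higher) and 1.73% under the cycle. An unadjusted p under 0.05 was found for 6460 of 19058 genes in darkness and 3050 of 18917 under the cycle. Of all genes, limma-voom called 4515 and 419. Of 21 rod genes in darkness, 1 rose (pde6ga, a rod phosphodiesterase subunit, 1.24 ± 0.21) and 1 fell (rgs9a). Limma-voom called 1 higher and 3 lower. The 4 rod markers summed to 823 to 1086 FPKM at 25 µM in darkness, below the range of dark controls. Nearly all of this sum was rho, with means of 1115 FPKM in dark controls and 862 FPKM at 25 µM. The means were 36.2 and 34.2 FPKM for gnat1, 3.39 and 3.09 for pde6b, and 6.14 and 6.55 for saga. Under the cycle 0 of 20 rod genes were called, with 3 at an unadjusted p under 0.05 and none by limma-voom. There the rod markers summed to 751 to 1532 FPKM, overlapping the cycle controls. The 6 cone markers summed to 727 to 1009 FPKM at 25 µM in darkness and to 456 to 725 FPKM under the cycle, in each case partly below the controls. Most of each sum was gngt2b and gnat2. Means of gnat2, pde6c, gngt2b and cnga3a were below those of controls in both photoperiods. Mean arr3a was not, at 39.0 FPKM in dark controls and 44.2 FPKM at 25 µM, and 47.1 and 52.9 FPKM under the cycle. Mean arr3b was 18.7 and 15.4 FPKM in darkness, and 15.5 FPKM in both groups under the cycle. The part of these markers in the opsin results was not tested. Lens genes had 0 of 22 called in darkness and 0 of 24 under the cycle, with 1 and 0 at an unadjusted p under 0.05 and none by limma-voom, and lens markers summed to 2704 to 2850 FPKM and 2697 to 2996 FPKM. Outer segment and cilium genes had 0 of 17 called in each photoperiod, with 2 in darkness and 4 under the cycle at an unadjusted p under 0.05 and 1 and 0 by limma-voom. The 2 Mueller glia markers summed to 52.6 to 64.1 FPKM in dark controls and 36.6 to 52.7 FPKM at 25 µM. Under the cycle they summed to 46.7 to 67.0 FPKM and 49.2 to 63.4 FPKM. At 25 µM the 3 bipolar markers summed to 6.11 to 14.3 FPKM in darkness and 16.3 to 21.4 FPKM under the cycle. The 2 pigment epithelium markers summed to 36.1 to 51.6 FPKM and 69.3 to 118 FPKM. All of these ranges overlapped those of the controls.

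In darkness, where 21.8% of all genes were called, 12.2% as higher and 9.6% as lower, 3 of 23 genes of other retinal cells and pigment epithelium rose and 7 fell. Limma-voom gave the same counts. Falls in darkness were thus not confined to the cone phototransduction list, where 8 of 26 fell. The median log2 difference of the 23 was −0.04, where that of all genes was −0.01 and that of the cone list −0.25. Under the cycle none of the 23 passed (2 at an unadjusted p under 0.05, none by limma-voom). Of 25 visual cycle genes, which recycle the chromophore, 3 rose and 1 fell in darkness, a count of 4 beside the 21.8% of all genes, with the retinol dehydrogenases rdh10b at 1.73 and rdh12l at 1.42, and 0 of 24 passed under the cycle (4 at an unadjusted p under 0.05, none by limma-voom). Of 20 pineal and non-visual opsin genes, 1 fell in darkness (asmt, an enzyme of melatonin synthesis, −1.10), and 0 of 19 passed under the cycle (4 at an unadjusted p under 0.05, none by limma-voom). At 0.0025 µM none of the 8 lists had a member called in either photoperiod by limma or limma-voom, with 0 to 5 members of a list at an unadjusted p under 0.05. Of all genes, 1417 of 19058 in darkness and 1029 of 18917 under the cycle had such a p. Between the controls, 12 of 26 cone phototransduction genes were higher in darkness and 1 lower, while 2 of 26 visual cycle genes were higher and 11 lower, where 9.24% of all genes were higher and 10.8% lower. The 2 pigment epithelium markers summed to 30.4 to 48.7 FPKM in dark controls and 115 to 146 FPKM in cycle controls, and their part in the opsin differences was not tested.

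The cone opsins varied together to different degrees. With photoperiod means removed, Pearson r over the 24 libraries was 0.920 between opn1sw1 and opn1mw1, 0.872 between opn1sw1 and opn1sw2 and 0.851 between opn1mw1 and opn1sw2. It was 0.365 to 0.506 between opn1lw2 and these 3 genes, and 0.0260 to 0.327 between opn1mw2 and the other 4. These values include the dose effect and shared scaling. With the means of the 6 groups removed, r was 0.930, 0.790 and 0.705 for the first 3 pairs in the same order. It was then 0.404 to 0.477 between opn1lw2 and these 3 genes, and 0.0275 to 0.183 between opn1mw2 and the other 4. The genes most similar to the summed opsins, among 16181 with a mean of at least 1 FPKM, were racgap1 (0.933), elovl4b (0.914), cdc20, kif11, iqgap3, cbx1b, fbxo5, zgc_86896, tmsb2 and VIT (0.901 for the last). Nearest to opn1sw1 were VIT, cbx1b and map2k6 (0.902 to 0.913), to opn1mw1 f7i, racgap1 and gnb3b (0.926 to 0.956), to opn1sw2 lamb4, cbx1b and elovl4b (0.844 to 0.852), and to opn1mw2 apom, CABZ01080371.2 and plg (0.759 to 0.775).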

How the data were processed

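HISAT2 2.0.5 and featureCounts 1.5.0-p3 are the aligner and counter named in the submitters' processing notes. Values per gene are FPKM as the authors deposited them, in 2 tables, 1 per photoperiod. The scaling of the dark libraries matched median-of-ratios factors over those 12 libraries. For the 12 cycle libraries it was 0.987 to 1.02 times such factors, relative to the median, so how that table was scaled is not known. FPKM times gene length gave whole fragments for 100% of values (tolerance 0.001), from which depths of 8.44 to 18.5 M fragments were recovered. The tables hold FPKM, so log2(FPKM + 0.1) was tested with limma 3.58.1 (R 4.3.3, intensity trend). Genes needed at least 0.5 FPKM in at least 4 libraries. Benjamini-Hochberg adjustment covered all tested genes, with a threshold of 0.05. Comparisons within a photoperiod used its 12 libraries and those across photoperiods all 24. The fits were also run on simulated data with 1 spread for all genes. That run required only that most large changes were recovered and no changed gene was called in the wrong direction. Recovery of small changes and the number of false calls had no required limit. Shares were compared by exact permutation tests (scipy 1.17.1).

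The 8 opsins and 8 gene lists (204 of 212 names found) were chosen with earlier results of these data known. Text names all 8 opsins, up to 4 called members per list by smallest adjusted p for 25 µM against control, and the nearest genes by Pearson r. No sequences were used here.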

Additional observations from a re-analysis of the deposited data

Results flagged for a closer look

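The response of opn1mw2 to 25 µM PFHxS differed between darkness and the light-dark cycle by 2.64 on the log2 scale, in a test of the difference itself. Among 78 groups of 4 libraries examined for a library far from the others, of which chance sets apart about 1 in 20, a few stood out. The third dark library at 0.0025 µM had the lowest opn1sw1 level of its group, 1119 FPKM. The first cycle library at 25 µM had the highest green share of its group, 24.6%. The rest were high libraries of scarce genes, each resting on at most 5 fragments: opn1mw3 at 0.144 FPKM in cycle control 1, and opn1mw4 at 0.239 FPKM in dark control 3, 0.0698 FPKM in dark 0.0025 µM library 4, 0.153 FPKM in dark 25 µM library 4 and 0.303 FPKM in cycle 25 µM library 1. Except for dark control 3, each of these libraries was the only one of its group with any fragment of that gene. The check sets such a library apart whatever its level, so the rate of 1 in 20 does not apply there.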

How the results depend on the processing

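The settings tried were limma-voom on recovered fragments, a pseudocount of 1, no filter, a mean of at least 50 fragments, scaling to total fragments, median-of-ratios factors, a replicate block, fits of 2 groups alone or of all 24 libraries, and leaving out 1 library at a time. No value that passed changed sign. With 1 library left out, 20 of all 960 log2 differences and 3 of all 120 share differences changed sign, and none of these passed. Among them were opn1lw2 at 25 µM against control in darkness (−0.21 to 0.22) and opn1sw1 under the cycle (−0.15 to 0.03). No value changed sign under the other settings. The number of opsins called was unchanged or within 1.5 times in all 86 pairs of a comparison and another setting. Leaving out 1 library moved it for the difference between photoperiods in the response to 25 µM, from 1 to 2, and gave 2 to 3 for 25 µM against control or against 0.0025 µM in darkness. Of the log2 differences, 427 kept their side of the threshold under other settings and 3 lost their call, and with 1 library left out 946 kept it, 12 lost and 2 gained a call. These are the values of opn1mw2, opn1sw2 and opn1sw1 given above, and the cause was not tested. No share passed from FPKM or from fragments (lowest adjusted p = 0.0857 over the 15 exact permutation tests). Even with all libraries, a share at the smallest possible p could not pass alone after this adjustment. With 1 library left out none could pass, since an exact test of 3 against 4 libraries cannot give less than p = 0.0571.

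Scaling to total fragments changed the split of all called genes from 196 higher and 38 lower to 121 and 108 for the difference between photoperiods at 25 µM, and from 2060 and 2001 to 2519 and 1628 for dark against cycle at 0.0025 µM. For 25 µM against control in darkness the split changed from 2318 and 1829 to 2129 and 2117. Against 0.0025 µM in darkness it turned from 2182 and 1795 to 1996 and 2122. Limma-voom called 7 cone phototransduction genes lower under the cycle, against 3, and 419 of all genes, against 328. Replicate numbers showed no sign of pairing: with group means removed, same-numbered libraries correlated with r of −0.113 to 0.0209 in darkness and −0.136 to 0.118 under the cycle. Differently numbered libraries correlated with r of −0.0635 to 0.105 and −0.114 to 0.170. The labels do not say what the numbers stand for, so a pairing by design remains possible. With the replicate number as a block, 3 opsins were called for 25 µM against control in darkness, 1 under the cycle and 1 for the difference, as without it. The block was not run for dark against cycle groups, whose numbers lie within photoperiods. Depth limits opn1lw1, opn1mw3 and opn1mw4, with at most 21, 4 and 5 fragments in a library.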
